A study of Mus musculus with 3 samples.

Results

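The levels of 8 genes for homing receptors of the gut and of inflamed tissue were measured in immune cells of the inflamed mouse colon: Ccr9, Gpr15, Ccr6, Ccr10, Cxcr6, Gpr183, Ccr1 and Cx3cr1. They were taken by gene symbol from the 32285 genes of 3 single-cell libraries, and all 8 were found. Each encodes a G-protein-coupled receptor on the cell surface that senses a chemoattractant, in most cases a chemokine, and steers the migration or the positioning of a leukocyte. Ccr9 and Ccr10 direct lymphocytes and antibody-secreting cells to mucosal epithelium, Gpr15 brings T cells to the large intestine, and Ccr6, Cxcr6, Gpr183, Ccr1 and Cx3cr1 position lymphocytes or myeloid cells within tissue or recruit them during inflammation. These receptors act beside the adhesion step in which integrin α4β7 on leukocytes binds MAdCAM-1 on gut vessels, the step that the antibodies of the study block.

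All mice were of strain C57BL/6J and all had colitis, induced by 1.5% dextran sulfate sodium (DSS) in the drinking water for 7 days and followed by 3 days of plain water. Each was given 250 µg of antibody into the peritoneum 3 times a week: DATK32, MECA-367 or, as the control, a rat IgG isotype antibody. The labels name DATK32 as surrogate of ontamalimab and MECA-367 as surrogate of vedolizumab, whereas DATK32 is generally known to bind α4β7 and MECA-367 to bind MAdCAM-1, which is the opposite pairing, so the groups are called here by antibody clone. Viable CD45+ cells were sorted from lamina propria preparations of the colon, and 1 library per antibody was made with 10x Genomics 3′ v3.1 chemistry. The number of animals in each library is not given in the sources used here, and all 3 groups carried DSS, so no library shows the uninflamed colon. With 1 library per group there are no replicates and no test between antibodies. Values are therefore sums of unique molecular identifiers (UMIs, one count per captured transcript) scaled to the total of the class (CPM), with exact Poisson intervals of 95%, and shares of cells with exact binomial intervals, both of which cover counting error only. They were compared across cell classes and libraries within a gene, not between genes.

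After filtering, 5852 cells remained in the DATK32 library, 5890 in the MECA-367 library and 7367 in the rat IgG library. Clusters were named from marker genes, so each class is X-like by these markers (B-like, T-like and so on, shortened here to B cells and T cells), and a difference from the study may come from these rebuilt names. Named leukocyte classes held 33.9% of cells in the DATK32 library, 45.4% in the MECA-367 library and 36.6% in the rat IgG library, and most of the rest were epithelial or stromal despite the CD45 sort. Ptprc, the gene of CD45, was detected in 65.5%, 71.5% and 56.1% of leukocytes of the DATK32, MECA-367 and rat IgG libraries, and in 3.22%, 4.87% and 5.26% of their epithelial, stromal and vessel cells. T cells had a median of 929.5, 1218 and 715 UMIs per cell in the DATK32, MECA-367 and rat IgG libraries, and neutrophils 1145, 2436 and 876.5, so the MECA-367 library was the deepest in both, whereas in B cells it was the shallowest (1172, 907.5 and 934.5). Between 7 and 11 kept barcodes were shared by any pair of libraries.

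The 8 genes lie on 5 chromosomes of GRCm38, and 4 of them on chromosome 9. Ccr9 (chr9:123678439-123784330, plus strand), Cxcr6 (chr9:123806475-123811760, plus strand) and Ccr1 (chr9:123962124-123968692, minus strand) are neighbours in a chemokine receptor cluster, with gaps of 22.1 kb and 150.4 kb between them. Cx3cr1 lies farther off at chr9:119901616-120069879 on the minus strand. Gpr15 is at chr16:58717433-58719070 (minus), Ccr6 at chr17:8236043-8257141 (plus), Ccr10 at chr11:101172997-101175443 (minus) and Gpr183 at chr14:121952551-121965195 (minus). Gpr183 overlaps Ubac2, Ccr10 overlaps Cntnap1, Cxcr6 overlaps Fyco1 and Gpr15 overlaps Cpox, each on the opposite strand. Ccr9 overlaps 6 annotated genes and Cx3cr1 9, some of them on the same strand, and Ccr6 and Ccr1 overlap none. Whether the counting used strand is not given in the sources used here, so reads of these partners may be split with the receptor genes. The 250 bases before the RefSeq start of the 3 clustered genes are shown because these neighbours led in different cells, as described for each gene further on. They are written 5′ to 3′ on the gene's strand from RefSeq (GRCm38.p6), for Ccr9 from chr9:123766961-123767210 (plus), for Cxcr6 from chr9:123806227-123806476 (plus) and for Ccr1 from chr9:123968693-123968942 (minus), and capitals mark a GAGGAA motif.
Ccr9: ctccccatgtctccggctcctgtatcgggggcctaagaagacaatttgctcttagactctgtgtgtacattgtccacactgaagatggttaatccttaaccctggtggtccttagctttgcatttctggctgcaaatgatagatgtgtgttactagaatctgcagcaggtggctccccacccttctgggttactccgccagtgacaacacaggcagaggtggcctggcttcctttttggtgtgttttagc
Cxcr6: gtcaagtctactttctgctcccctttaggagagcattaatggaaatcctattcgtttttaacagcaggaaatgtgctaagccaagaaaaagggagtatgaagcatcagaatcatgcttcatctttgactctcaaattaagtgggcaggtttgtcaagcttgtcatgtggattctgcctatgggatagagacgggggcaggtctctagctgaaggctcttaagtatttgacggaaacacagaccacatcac
Ccr1: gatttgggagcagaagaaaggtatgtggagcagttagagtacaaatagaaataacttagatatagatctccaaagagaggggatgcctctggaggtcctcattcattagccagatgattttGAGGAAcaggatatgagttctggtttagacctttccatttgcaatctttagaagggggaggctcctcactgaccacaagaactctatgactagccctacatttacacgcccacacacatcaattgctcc
Both strands were searched for TCACAC (T-box factors), AGGTCA (ROR factors), GAGGAA (ETS factors) and CAGCTG (an E-box). The Ccr1 window held 1 GAGGAA and none of the other motifs, and the windows of Ccr9 and Cxcr6 held none of the 4. Of 32851 mouse promoter windows of the same length, 12.3% held TCACAC, 14.0% AGGTCA and 23.3% GAGGAA, and 4271 held CAGCTG. A match is a description of the letters and not a binding site. RefSeq windows were matched for 7 of the 8 genes.

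Detection differed widely among the genes. Over the 19109 kept cells Ccr1 had 2659 counts in 1436 cells, Gpr183 1844 counts in 1303 cells, Ccr10 1012 counts in 589 cells and Cxcr6 755 counts in 527 cells. Ccr9 had 340 counts in 254 cells, Cx3cr1 153 in 100, Ccr6 98 in 92 and Gpr15 56 in 55. Most cells with a receptor held a single UMI of it, for example 202 of the 254 cells with Ccr9 and 54 of the 55 with Gpr15, so an undetected receptor in a cell does not show that the cell lacked it. Named leukocytes held between 71.2% of the counts, for Cx3cr1, and 98.4%, for Ccr10.

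**Figure D1:**
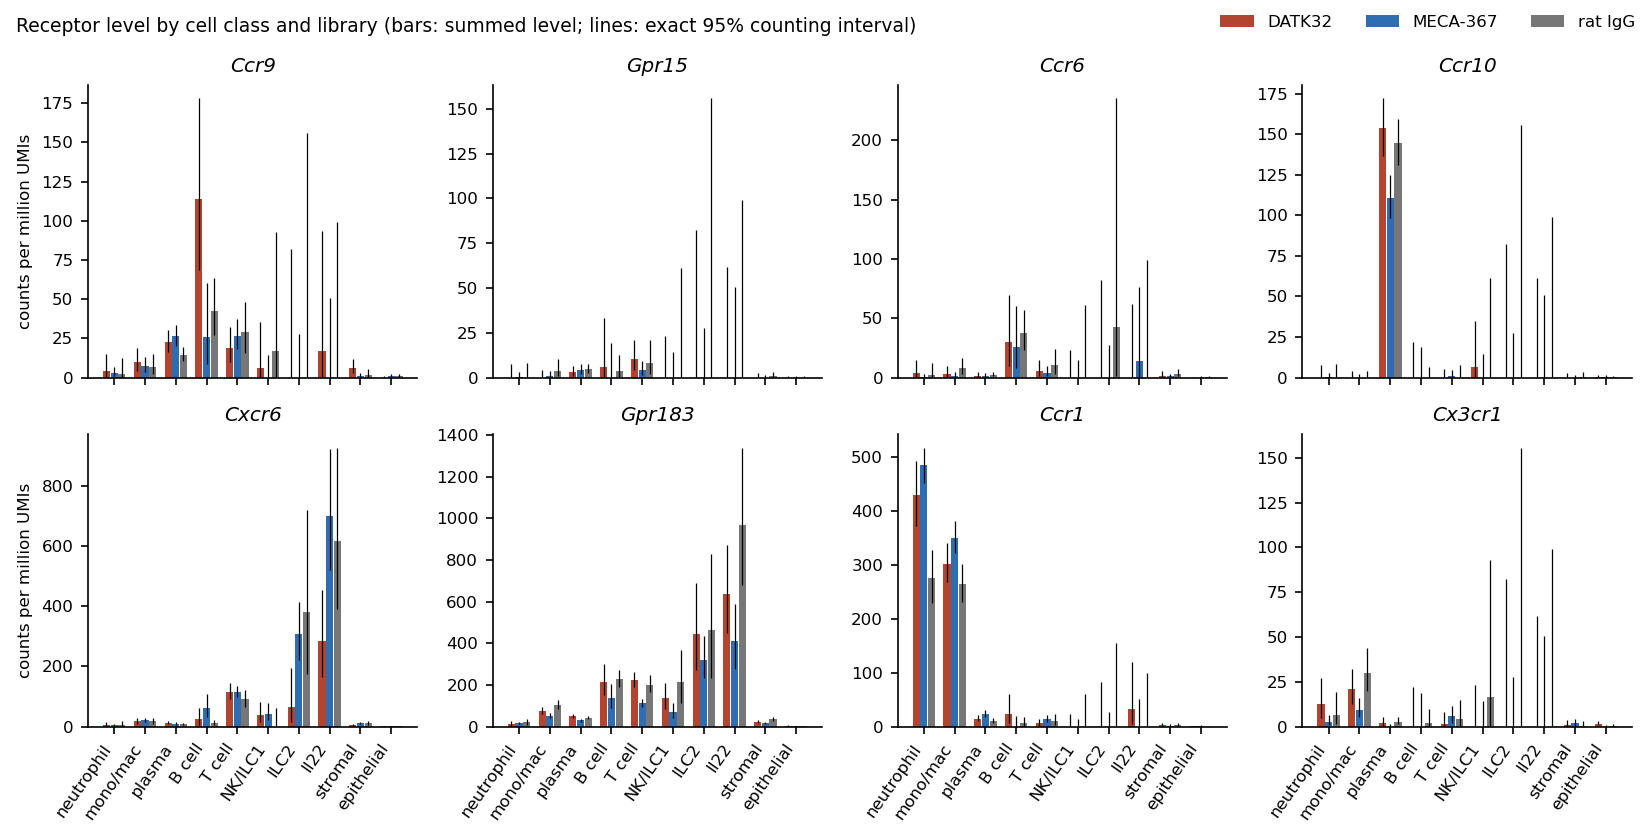
Level of each receptor gene (CPM, vertical axis, scale differs between panels) in 10 cell classes (horizontal axis) of the DATK32, MECA-367 and rat IgG libraries, with bars as summed CPM and lines as exact 95% Poisson intervals. Ccr10 stands in plasma cells at 154, 111 and 145 CPM, Ccr1 in neutrophils at 430.1, 485 and 276 CPM, and Gpr183 is spread over most lymphocyte classes. Mono/mac stands for the monocyte and macrophage class.

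Ccr9, the receptor for the gut chemokine Ccl25, had its highest level in the B cell class, at 52.0 CPM (95% interval 38.4 to 69.0) over 48 counts. It stood at 114 CPM in the DATK32, 25.8 CPM in the MECA-367 and 42.7 CPM in the rat IgG library, from 19, 5 and 24 counts. These counts came from 22 of 750 cells. Of the 48 counts, 34 lay in the 17 cells with a UMI of Siglech, a defining gene of plasmacytoid dendritic cells, at 1326 CPM (918 to 1853), against 14 counts and 15.6 CPM (8.53 to 26.2) in the other 733 cells. Cox6a2, another gene of that marker list, was found in 9 of the 22 cells with Ccr9 and in 2 of the other 728. Cd79a, part of the B cell receptor complex, was found in 5 of those 22 cells and in 413 of the 728. The Ccr9 level of the B cell class therefore went with a few cells whose markers were those of plasmacytoid dendritic cells rather than of B cells, and the interval of the other cells overlapped that of T cells (24.9 CPM, 19.0 to 32.1).

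In T cells Ccr9 stood at 18.9, 26.8 and 28.9 CPM in the DATK32, MECA-367 and rat IgG libraries, from 13, 33 and 14 counts. In plasma cells it stood at 22.6, 26.4 and 14.4 CPM, from 44, 67 and 41 counts. The library ranges of B, T and plasma cells overlapped, and all 3 classes lay above monocytes and macrophages, at 9.83, 7.35 and 6.95 CPM in the same order of libraries. Without the cells that held Siglech, B cells stood at 25.2, 5.34 and 16.3 CPM, and their range then overlapped that of monocytes and macrophages. Stromal cells, which are not known to use Ccr9, had 2.43 CPM and epithelial cells 0.560 CPM over the 3 libraries. Among lymphocyte sub-clusters Ccr9 was at 69.7 CPM (34.8 to 125) in the one led by Gzma and Cd8a, which also held Itgae and Trdc, from 2, 8 and 1 counts in the DATK32, MECA-367 and rat IgG libraries. It was at 36.1 CPM in the sub-cluster led by Tnfrsf4, Foxp3 and Ctla4, genes of regulatory T cells, which is called the Foxp3 sub-cluster here because its lead over the cycling markers was too small for a name. Of 139 T cells with Trdc, the constant gene of the gamma-delta receptor, 12 held Ccr9 (8.63%), against 2.36% of T cells without it, and with each cell thinned to 500 UMIs the shares were 2.56% (0.312 to 8.96) and 0.97%, so the intervals at equal depth allow no difference.

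Gpr15, which brings T cells to the colon, was the sparsest gene, and 54 of its 56 counts lay in named leukocytes. T cells had 7, 5 and 4 counts in the DATK32, MECA-367 and rat IgG libraries, at 10.2, 4.05 and 8.24 CPM. Plasma cells had 6, 11 and 13 counts, at 3.08, 4.33 and 4.57 CPM. Of the 16 counts in T cells, 10 lay in the Foxp3 sub-cluster, at 11.6 CPM (5.58 to 21.4). T cells with a UMI of Foxp3, the transcription factor of regulatory T cells, held Gpr15 in 4 of 110 cells (3.64%), against 11 of 1721 cells (0.639%) without one. Thinned to 500 UMIs per cell the counts were 1 of 65 cells (0.0389% to 8.28%) and 5 of 1766 cells (0.0920% to 0.659%), and the intervals overlapped at both depths. At this depth no difference between the antibodies was detectable for Gpr15, since no class had the 50 counts needed for a ratio.

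Ccr6, the receptor for Ccl20, marks B cells and lymphocytes that gather near the follicle-associated epithelium. Over the 3 libraries its level was highest in B cells, at 33.6 CPM (22.8 to 47.7), from 5, 5 and 21 counts in the DATK32, MECA-367 and rat IgG libraries. Those counts gave 30.0, 25.8 and 37.4 CPM and were too few for a ratio between antibodies. All 14 counts of Ccr6 in T cells lay in the Foxp3 sub-cluster, which stood at 16.3 CPM (8.91 to 27.3), with 17.2, 10.5 and 33.5 CPM in the DATK32, MECA-367 and rat IgG libraries. Type 3 innate lymphocytes are known to carry the receptor, and a lymphocyte sub-cluster led by Il22, described with Cxcr6, had 1 count in 181 cells. That gave 5.89 CPM, with an interval (0.149 to 32.8) that overlapped that of B cells. In the rat IgG library alone the highest level was in type 2 innate lymphoid cells, a class of 33 cells there. Monocytes and macrophages stood at 3.66 CPM, stromal cells at 1.74 CPM and epithelial cells at 0.210 CPM.

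Ccr10, the receptor for the epithelial chemokines Ccl27 and Ccl28, was a plasma cell gene in these data. Plasma cells held 993 of its 1012 counts (98.1%), at 135 CPM (127 to 144). The level was 154 CPM in the DATK32 library, 111 CPM in the MECA-367 library and 145 CPM in the rat IgG library, from 299, 282 and 412 counts. Ccr10 was detected in 47.9%, 45.5% and 36.8% of plasma cells in that order, and with each cell thinned to 500 UMIs in 30 of 328, 10 of 323 and 58 of 725 plasma cells. Plasma cells had medians of 5105, 7007 and 3376 UMIs in the 3 libraries, so the full shares moved with depth as well as level. Epithelial cells, at a median of 2306 UMIs, stood at 0.280 CPM. The B cell class had 0 counts of Ccr10, where 3 counts would be 3.25 CPM. Igha, the heavy chain of IgA, was the top immunoglobulin constant gene in 1362 of the 1376 plasma cells. Ccr9, the other mucosal receptor of plasma cells, was found in 63 of 571 cells with Ccr10 and in 58 of 805 without it, at medians of 5477 and 3813 UMIs. Thinned to 500 UMIs, 0 of 98 cells with Ccr10 and 9 of 1278 without it (0.704%) held Ccr9.

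Cxcr6, the receptor for the membrane-bound chemokine Cxcl16 and a gene of tissue-resident lymphocytes, was highest in a lymphocyte sub-cluster led by Il22, Tnfsf11 and Cd163l1. This Il22 sub-cluster met the markers of type 3 innate lymphocytes and, in part, those of Th17 and gamma-delta T cells, and it is called by its leading gene here. Its Cxcr6 level was 536 CPM (432 to 658), with 284, 701 and 619 CPM in the DATK32, MECA-367 and rat IgG libraries, from 17, 51 and 23 counts. Cxcr6 was detected in 22.4%, 44.8% and 38.3% of its cells, and at 500 UMIs in 17.9%, 28.4% and 29.8%. Stromal cells held the gene in 1.31% of cells at a median of 1333 UMIs, against a median of 864 in the Il22 sub-cluster. Type 2 innate lymphoid cells (ILC2) followed at 262 CPM (196 to 343), with 66.9, 307 and 380.0 CPM from 3, 41 and 9 counts. The DATK32 library was the low one in both groups, on 17 and 3 counts, and both had under 100 cells in at least 1 library, so no ratio was taken.

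T cells stood at 116, 115 and 90.7 CPM for Cxcr6 in the DATK32, MECA-367 and rat IgG libraries, from 80, 142 and 44 counts. The Foxp3 sub-cluster was the highest of the T cell sub-clusters, at 223, 187 and 181 CPM. NK cells were lower, at 37.8, 43.0 and 0 CPM, where 3 counts in the rat IgG library would be 49.9 CPM. By library ranges the Il22 sub-cluster and ILC2 overlapped, ILC2 and T cells overlapped, T cells lay above NK cells, and NK cells, B cells and the monocyte and macrophage class overlapped. Cxcr6 was found in 18 of 39 T cells with Il17a (46.2%, 30.1 to 62.8), the cytokine of Th17 cells, against 159 of 1792 (8.87%) without it. The medians of these cells were 1659 and 964 UMIs, and at 500 UMIs the shares were 22.2% (8.62 to 42.3) and 5.10% (4.13 to 6.22), with intervals that remained apart. Klf2, a transcription factor of recirculating T cells, went the other way, with Cxcr6 in 24 of 397 cells with Klf2 (6.05%) against 10.7% of the others. Thinned, those shares were 2.50% (0.923 to 5.36) and 5.78% (4.69 to 7.04), and the intervals overlapped.

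Gpr183, the receptor for oxysterols that positions B cells, T cells and innate lymphocytes in lymphoid tissue, was the most widely spread of the genes. It was highest in the Il22 sub-cluster at 613 CPM (501 to 743), with 635, 413 and 968 CPM in the DATK32, MECA-367 and rat IgG libraries. ILC2 stood at 446, 322 and 464 CPM, B cells at 216, 139 and 228 CPM, and T cells at 223, 114 and 202 CPM in the same order. In all these groups the MECA-367 library was the lowest of the 3. NK cells stood at 139, 70.4 and 216 CPM, the monocyte and macrophage class at 75.4, 52.1 and 104 CPM, and plasma cells at 50.9, 29.9 and 41.8 CPM. Stromal cells stood at 24.2, 17.5 and 36.7 CPM, and their range overlapped that of plasma cells. ILC2 lay above B cells, while B, T and NK cells overlapped. Neutrophils had 16.9 CPM and epithelial cells 3.01 CPM.

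Within the lymphocytes, Gpr183 was at 244 CPM (212 to 280.0) in the Foxp3 sub-cluster and at 25.3 CPM (6.91 to 64.9) in the Gzma and Cd8a sub-cluster. T cells with Itgae, the integrin chain of intraepithelial lymphocytes, held Gpr183 in 7.14% of cells, against 16.0% of those without it, and thinned in 2.63% and 7.64%. T cells with Il17a held it in 46.2%, against 14.6%, and thinned in 14.8% (4.19 to 33.7) and 7.32%. The plot by lymphocyte sub-cluster sets these values beside those of Cxcr6, Ccr9 and Ccr6.

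**Figure D2:**
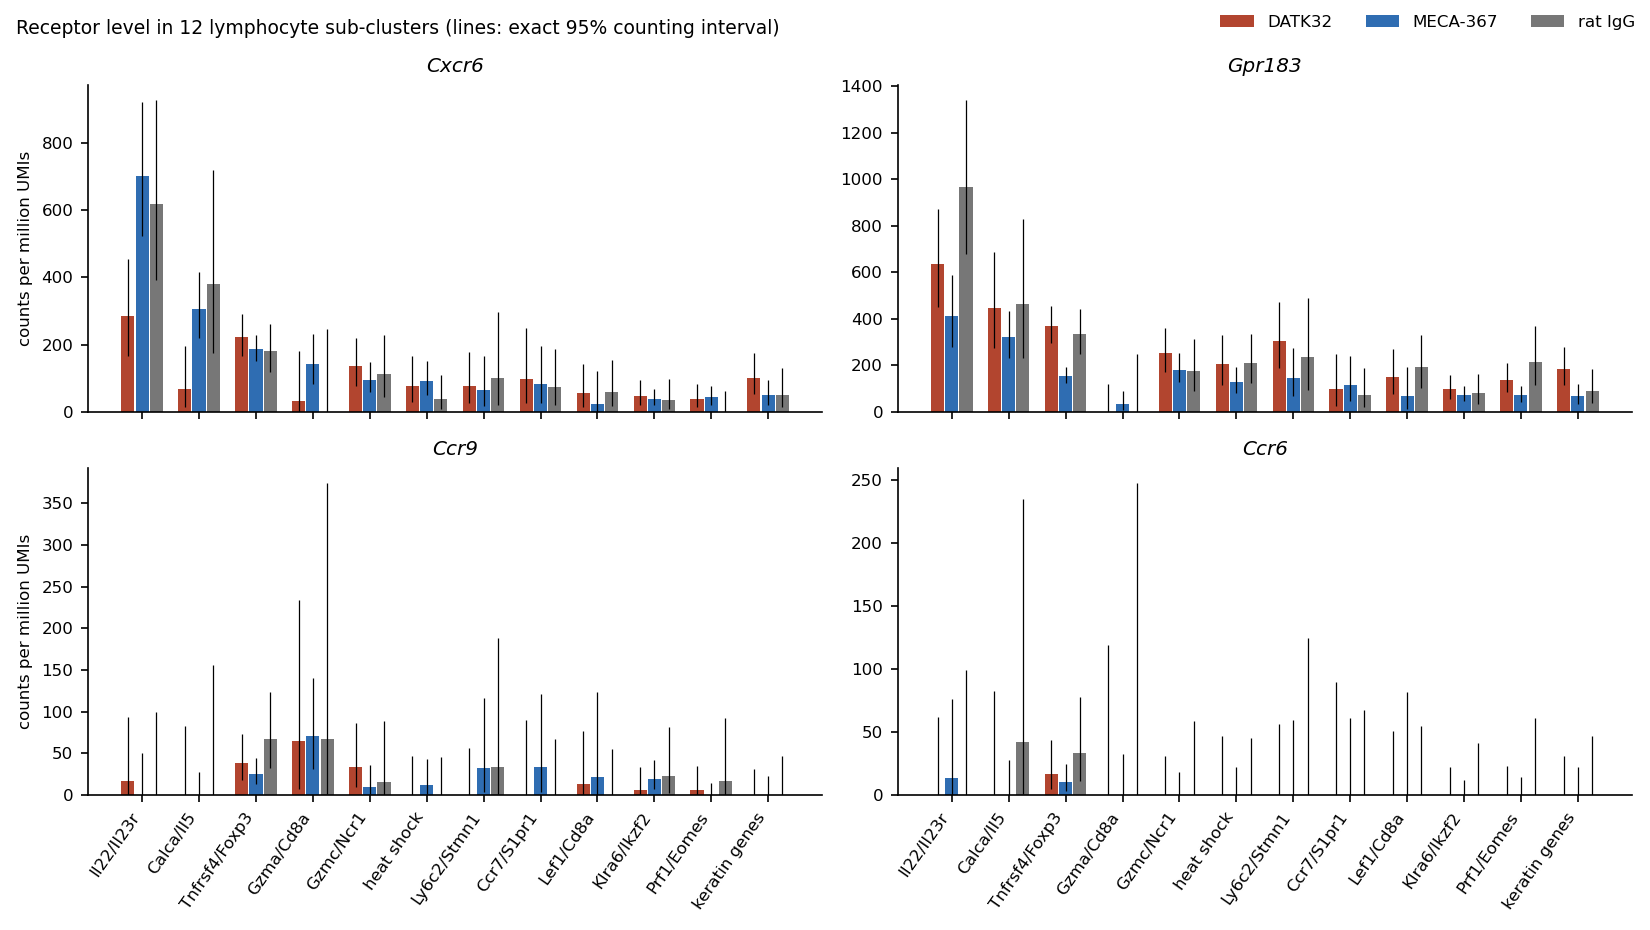
Levels of Cxcr6, Gpr183, Ccr9 and Ccr6 (CPM, vertical axis) in the 12 sub-clusters of the lymphocytes (horizontal axis) for the DATK32, MECA-367 and rat IgG libraries, with exact 95% Poisson intervals. The Il22 sub-cluster is highest for Cxcr6 (536 CPM over the 3 libraries) and Gpr183 (613 CPM), and the Gzma and Cd8a sub-cluster for Ccr9 (69.7 CPM).

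Ccr1, a receptor of neutrophils and monocytes for Ccl3, Ccl5 and related chemokines, was a myeloid gene. Neutrophils stood at 430.1 CPM in the DATK32 library (373 to 493), 485 CPM in the MECA-367 library (453 to 518) and 276 CPM in the rat IgG library (229 to 329), from 206, 867 and 124 counts. It was detected in 50.8%, 69.9% and 39.3% of neutrophils, and at 500 UMIs per cell in 27.3%, 23.8% and 19.7%. At equal depth the intervals of the 3 shares overlapped. Stromal cells held Ccr1 in 0.321% of cells at a median of 1333 UMIs, against a median of 1737 in neutrophils. Monocytes and macrophages stood at 303, 351 and 265 CPM, from 277, 525 and 229 counts, and their range overlapped that of neutrophils. Both classes lay above every other leukocyte class. Among the monocyte and macrophage sub-clusters, Ccr1 stood at 385 CPM in the one led by Nos2 and Saa3, 368 in the one led by S100a8 and Vcan, 294 in the one led by C1qa and Apoe and 221 in the one led by Cd209a and Clec10a.

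Cx3cr1, the fractalkine receptor of resident gut macrophages, was sparse. The monocyte and macrophage class stood at 20.8, 9.36 and 30.1 CPM in the DATK32, MECA-367 and rat IgG libraries, from 19, 14 and 26 counts. Of those 59 counts, 42 lay in the C1qa and Apoe sub-cluster, at 63.7 CPM, with 50.5, 39.4 and 97.1 CPM from 8, 10 and 24 counts. C1qa, C1qb and Apoe are genes of mature tissue macrophages. Neutrophils stood at 12.5, 2.80 and 6.67 CPM, a range that overlapped that of monocytes and macrophages, and T cells at 4.16 CPM. Single cells weighed on this gene, since 1 epithelial cell held 9 of the 12 counts of its class and 1 mast cell or basophil held 8 of 12. Mast cells or basophils, with 45 cells in all, stood at 273 CPM (141 to 476) on those 12 counts, which came from 4 cells, so monocytes and macrophages led only among classes with more cells. In the same sub-cluster Cxcr6 stood at 31.9 CPM and Gpr183 at 123 CPM, while Gpr183 was at 185 CPM in the Cd209a and Clec10a sub-cluster, whose leading genes are those of dendritic cells.

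**Figure D3:**
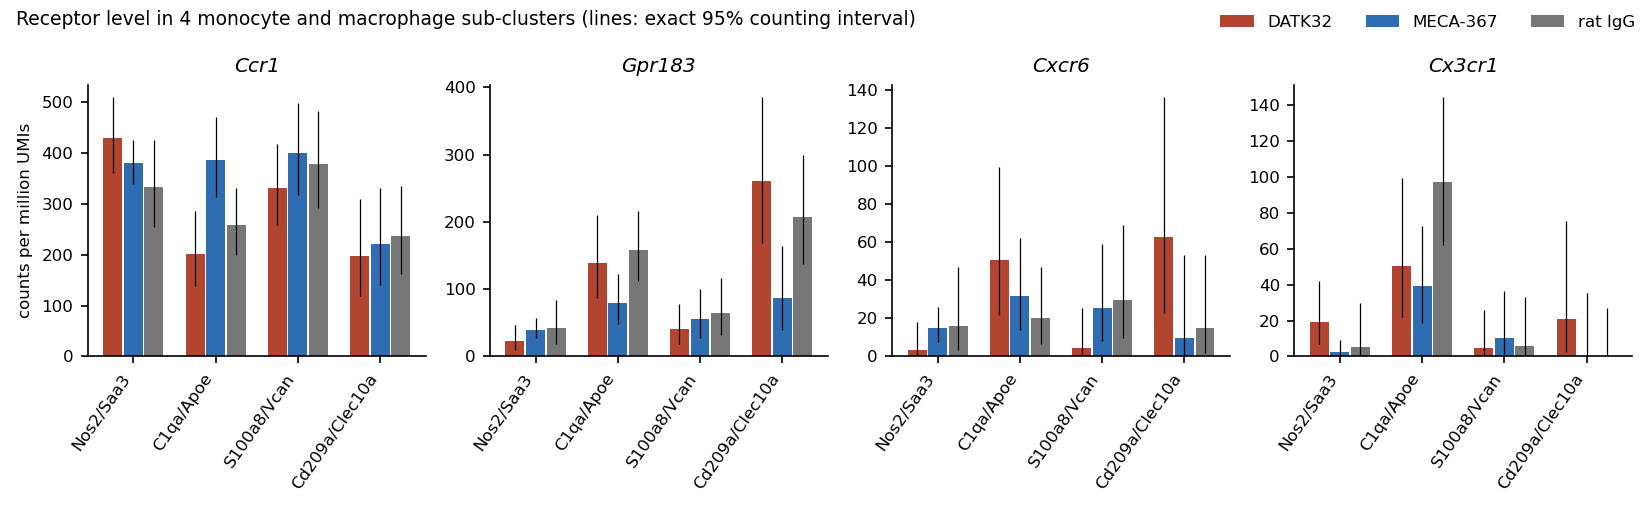
Levels of Ccr1, Gpr183, Cxcr6 and Cx3cr1 (CPM, vertical axis) in 4 sub-clusters of the monocyte and macrophage class (horizontal axis) for the DATK32, MECA-367 and rat IgG libraries, with exact 95% Poisson intervals. Cx3cr1 is highest in the C1qa and Apoe sub-cluster (63.7 CPM over the 3 libraries) and Gpr183 in the Cd209a and Clec10a sub-cluster (185 CPM).

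The genes most like each receptor were taken as the 3 with the highest Pearson r of log2(CPM + 1) over 21 sums of 1 class in 1 library, among 8783 genes. These sums share libraries and depth, so r is a description. Ccr10 was most like Tnfrsf17 (r 0.968), the plasma cell receptor BCMA, then Ighg3 (0.966) and Pycr1 (0.962). Ccr1 was most like Mefv (0.956), Cdc42ep2 (0.936) and Cfp (0.923), and Mefv and Cfp are genes of myeloid cells. Gpr183 was most like Icos (0.931), Ikzf3 (0.926) and Slc38a1 (0.924). Cxcr6 was most like 4930503L19Rik (0.906), Hlf (0.903) and Pdcd1 (0.900), and Ccr9 like Racgap1 (0.795), Itfg2 (0.788) and Mbd3 (0.786). Gpr15, Ccr6 and Cx3cr1 had under 100 counts over these sums. Among the receptors themselves r was highest between Cxcr6 and Gpr183 (0.642), Ccr9 and Gpr15 (0.640) and Ccr1 and Cx3cr1 (0.611), and lowest between Gpr183 and Ccr1 (-0.61). Neighbours on chromosome 9 were not alike in this measure, with r of -0.24 for Ccr9 and Cxcr6 and -0.38 for Cxcr6 and Ccr1.

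Ligands of the receptors were measured in the same libraries. Of 17 ligands and ligand-making enzymes listed, 16 were found. Cxcl16, the ligand of Cxcr6, was at 418 CPM in monocytes and macrophages (374, 409.8 and 478 CPM in the DATK32, MECA-367 and rat IgG libraries) and at 128 CPM in stromal cells. The Gpr15 ligand gene 2610528A11Rik stood at 463 CPM in epithelial cells. Ccl20, the ligand of Ccr6, was at 44.9 CPM in epithelial cells, and Ccl28, a ligand of Ccr10, at 32.0 CPM. Ccl25, the ligand of Ccr9, was at 13.8 CPM in epithelial cells, 18.4 CPM in B cells and 16.6 CPM in T cells, with overlapping intervals. Of the enzymes that make the oxysterol ligand of Gpr183, Ch25h was at 83.1 CPM in endothelial and 55.1 CPM in stromal cells, and Cyp7b1 at 24.0 CPM in stromal cells. Hsd3b7, which breaks that ligand down, was at 62.3 CPM in endothelial cells. Cx3cl1 stood at 39.2 CPM in endothelial cells. Ccl5, a ligand of Ccr1, was at 11976 CPM in NK cells and 4959 CPM in T cells.

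The question of the design is whether receptor levels differed between antibodies. A pair of a receptor and a class was measured where the class had at least 100 cells in each library and the gene at least 50 counts. It was called higher or lower where the CPM ratio was at least 1.5 either way and the 95% intervals did not overlap; log2 ratios had 1 count added, with an exact conditional interval. Of 14 measured pairs in 5 classes, 1 was called in DATK32 against rat IgG (higher), 6 in MECA-367 against rat IgG (3 higher and 3 lower) and 2 in DATK32 against MECA-367 (both higher). For DATK32 against rat IgG the same rule called 3.99% of all measured genes in B cells, 2.19% in T cells, 2.66% in monocytes and macrophages, 8.57% in neutrophils and 3.25% in plasma cells. For MECA-367 against rat IgG it called 4.71% in B cells, 7.02% in T cells, 9.22% in monocytes and macrophages, 33.4% in neutrophils and 13.3% in plasma cells. For DATK32 against MECA-367 it called 4.17%, 4.13%, 5.35%, 12.2% and 7.26% in the same order of classes. Over the measured pairs the median log2 ratio was 0.16 in the first of these comparisons, 0.04 in the second and 0.12 in the third. Over all measured genes those medians ran, for MECA-367 against rat IgG, from -0.44 in neutrophils to -0.05 in B cells. In 7 lymphocyte sub-clusters with at least 50 cells per library, 13 pairs with at least 20 counts gave 0 calls for DATK32 against rat IgG, 2 for MECA-367 against rat IgG (both lower) and 1 for DATK32 against MECA-367 (higher), where 1.56%, 3.49% and 3.24% of all gene and sub-cluster pairs were called. The 3 comparisons share libraries and are not independent of each other.

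**Figure D4:**
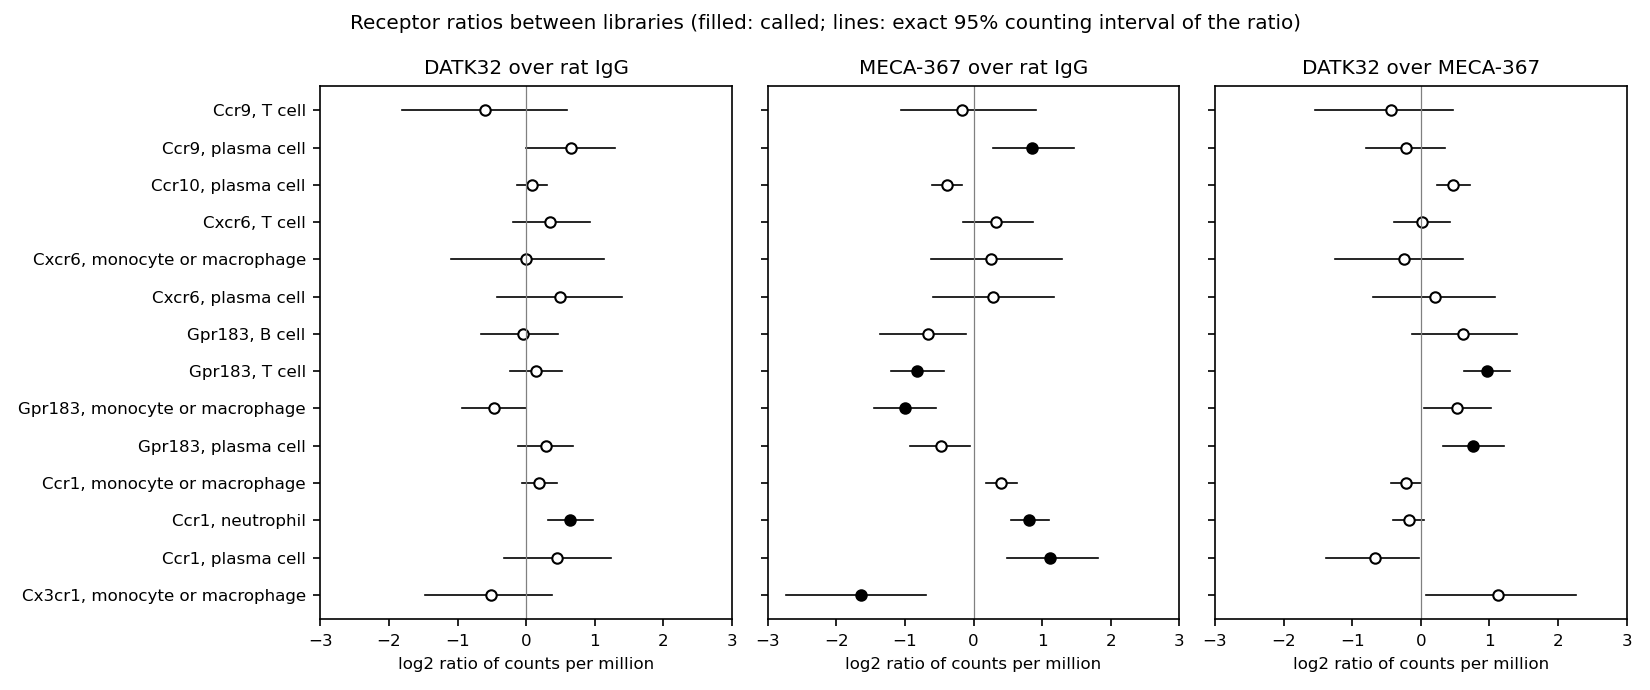
Log2 ratio (horizontal axis, tested antibody over the other) of the 14 measured pairs of receptor gene and cell class (vertical axis) in the 3 comparisons of antibodies (panels), with exact 95% intervals; filled points were called. Gpr183 in T cells is at -0.83 in MECA-367 against rat IgG and at 0.96 in DATK32 against MECA-367.

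All 5 calls in T cells and in lymphocyte sub-clusters were of Gpr183, and in each the MECA-367 library was the low one by CPM. These calls share counts. The Foxp3 sub-cluster is part of the T cell class and held 86 of its 153 counts in DATK32, 74 of 141 in MECA-367 and 50 of 98 in rat IgG. In T cells Gpr183 was lower in MECA-367 than in rat IgG, at 141 counts and 114 CPM against 98 counts and 202 CPM (log2 ratio -0.83, -1.20 to -0.43). It was higher in DATK32 than in MECA-367, at 153 counts and 223 CPM (0.96, 0.62 to 1.30). DATK32 against rat IgG was at 0.14 and was not called. The gene was found in 17.1%, 15.1% and 13.5% of T cells of the DATK32, MECA-367 and rat IgG libraries, and at 500 UMIs in 9.46%, 6.43% and 6.49%. With cells thinned to 500 UMIs the T cell ratio of MECA-367 to rat IgG was -0.13 and was not called, and that of DATK32 to MECA-367 was 0.72, also not called. In the Foxp3 sub-cluster Gpr183 was lower in MECA-367, at 155 CPM, than in rat IgG, at 335 CPM (-1.12, -1.65 to -0.56), and higher in DATK32, at 369 CPM, than in MECA-367 (1.25, 0.78 to 1.72). Medians there were 1066, 1434.5 and 882 UMIs, and the thinned shares were 13.7%, 11.4% and 8.87% in the DATK32, MECA-367 and rat IgG libraries. In the NK cell sub-cluster Gpr183 was lower in MECA-367, at 18 counts and 70.4 CPM, than in rat IgG, at 13 counts and 216 CPM (-1.65, -2.73 to -0.47). The greater depth per cell of the MECA-367 library moved with these lower levels, and its part in them beyond the thinned values was not tested. In B cells, where the MECA-367 library was the shallowest, its Gpr183 level was the lowest of the 3, on 27 counts. That difference from rat IgG, with 128 counts, was not called, and the part of depth in it was not tested.

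Gpr183 was also lower in MECA-367 monocytes and macrophages, at 78 counts and 52.1 CPM, than in those of rat IgG, at 90 counts and 104 CPM (-0.996, -1.46 to -0.55). At 500 UMIs per cell the ratio was -1.12 on fewer counts and was not called. Its values in the C1qa and Apoe sub-cluster were 139, 78.8 and 158 CPM in the DATK32, MECA-367 and rat IgG libraries, and in the Cd209a and Clec10a sub-cluster 261, 86.4 and 207 CPM. The MECA-367 library was the lowest in both, but the ratios of the first were not called. The second had too few MECA-367 cells for a ratio. In the Nos2 and Saa3 sub-cluster Gpr183 stood at 22.6, 39.9 and 42.8 CPM in the same order of libraries. In the S100a8 and Vcan sub-cluster it stood at 41.4, 55.7 and 65.0 CPM, and the DATK32 library was the lowest in these 2. The Cd209a and Clec10a sub-cluster held 59 of 447 cells of the class in the DATK32 library, 44 of 497 in the MECA-367 library and 101 of 572 in the rat IgG library. Marker genes of other cells with Gpr183 moved with the class level too, since the 8 B cell markers summed to 41.5, 14.7 and 164 CPM in these monocytes and macrophages and the 8 T cell markers to 415, 358 and 548 CPM. The part of these differences in the result was not tested. In plasma cells Gpr183 was higher in DATK32, at 50.9 CPM, than in MECA-367, at 29.9 CPM (0.76, 0.32 to 1.22), a call that ended at a mitochondrial limit of 5% (0.65). In B cells the ratio of MECA-367 to rat IgG was -0.67 (-1.37 to -0.10) and was not called, since the intervals of the 2 levels overlapped.

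Ccr1 was called higher in neutrophils of both antibody libraries than in those of rat IgG, with a log2 ratio of 0.64 (0.31 to 0.97) for DATK32, a call that ended under 10 of 20 alternative settings, and of 0.80 (0.54 to 1.10) for MECA-367. The median ratio of all measured genes in neutrophils was -0.18 and -0.44 in these comparisons, and relative to it Ccr1 stood at 0.82 and 1.24. For Ccr1, DATK32 against MECA-367 was at -0.17, not called. Of the 5067 genes measured in neutrophils, 156 were called higher and 278 lower in DATK32 than in rat IgG, and 387 higher and 1305 lower in MECA-367 than in rat IgG. Neutrophil marker genes summed to 139964, 190009 and 87357 CPM in the DATK32, MECA-367 and rat IgG neutrophils, and epithelial markers to 4385, 2348 and 5952 CPM in the same cells. The neutrophil sum had the same order of libraries as Ccr1, and the epithelial sum the reverse order. The part of either in the result was not tested. At 500 UMIs per cell the DATK32 ratio was 0.53 and the MECA-367 ratio 0.21, neither of them called. With cells over 0.5% of UMIs in epithelial marker genes left out, they were 0.32 and 0.27, also not called. In monocytes and macrophages the MECA-367 ratio to rat IgG was 0.40 (0.18 to 0.63), under the fold needed, and the DATK32 ratio 0.19. Ccr1 was also called higher in MECA-367 plasma cells, at 24.0 CPM, than in those of rat IgG, at 10.9 CPM (1.12, 0.49 to 1.81). However, 110 of its 121 plasma cell counts lay in 1 cluster of 153 cells that also held macrophage markers, at 109, 122 and 73.4 CPM in the DATK32, MECA-367 and rat IgG libraries. The 8 neutrophil markers summed to 406, 2196 and 735 CPM in the plasma cells of these libraries, and their part in the call was not tested. Without that cluster the counts were too few for a ratio.

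Cx3cr1 was lower in monocytes and macrophages of the MECA-367 library, at 9.36 CPM, than in those of rat IgG, at 30.1 CPM (-1.64, -2.74 to -0.70), from 14 and 26 counts. DATK32 against rat IgG was at -0.52 and DATK32 against MECA-367 at 1.12, neither of them called. The C1qa and Apoe sub-cluster, which carried most of the counts, had 70 of 447 cells of the class in the DATK32 library, 113 of 497 in the MECA-367 library and 166 of 572 in the rat IgG library. Within it the ratio of MECA-367 to rat IgG was -1.22 (-2.53 to -0.18), from 10 and 24 counts, and was not called. The part of this sub-cluster's share of cells in the class level was not tested.

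Plasma cells carried both mucosal receptors, and at full depth 1 of the 6 ratios of Ccr9 and Ccr10 was called. Ccr9 was higher in MECA-367 plasma cells, at 67 counts and 26.4 CPM, than in those of rat IgG, at 41 counts and 14.4 CPM (0.86, 0.29 to 1.47), while DATK32, at 22.6 CPM, was at 0.65 and not called. The MECA-367 call ended at a mitochondrial limit of 5% (0.71) and with the cells of highest doublet score left out (0.78). At 500 UMIs per cell Ccr9 was found in 0.61%, 0.929% and 0.552% of plasma cells of the DATK32, MECA-367 and rat IgG libraries, too few for a comparison at equal depth. Ccr10 gave 0.09 (-0.13 to 0.30) for DATK32 and -0.38 (-0.61 to -0.16) for MECA-367, each against rat IgG, and DATK32 over MECA-367 was at 0.47 (0.23 to 0.71), none of them called. These ratios depended on depth: with cells thinned to 500 UMIs they were 0.38, -1.30 and 1.69, and at 1000 UMIs 0.89, 0.02 and 0.86. At 500 UMIs Ccr10 was called lower in MECA-367 than in rat IgG and higher in DATK32 than in MECA-367, and at 1000 UMIs it was called higher in DATK32 than in each of the others.

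Cxcr6 and Ccr9 in T cells gave no call. For Cxcr6 the T cell ratio was 0.35 for DATK32 and 0.32 for MECA-367, each against rat IgG, and 0.02 for DATK32 over MECA-367. For Ccr9 the same ratios were -0.60, -0.16 and -0.44. In the Foxp3 sub-cluster Ccr9 stood at 38.6, 25.2 and 66.9 CPM in the DATK32, MECA-367 and rat IgG libraries from 9, 12 and 10 counts, and its MECA-367 ratio of -1.43 (-2.75 to -0.04) was not called.

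Other trafficking genes, listed by pathway, were counted in the same way. Of 23 other chemoattractant receptors, 8 were measured in T cells. Among all measured genes of T cells the rule called 2.19% for DATK32 and 7.02% for MECA-367, each against rat IgG. DATK32 against rat IgG gave 1 higher, Ccr2 (0.80), a receptor of effector and monocytic cells, and 2 lower, Ccr7 (-0.85) and S1pr1 (-1.11), which guide recirculation through lymph nodes. MECA-367 against rat IgG gave 0 higher and 2 lower, again Ccr7 (-1.57) and S1pr1 (-1.50). The T cell class differed in its make-up, since the sub-cluster led by Ccr7 and S1pr1 held 52 of 592, 70 of 715 and 71 of 524 of its cells in the DATK32, MECA-367 and rat IgG libraries, and the one led by Lef1 and Cd8a 86, 41 and 94. The part of this in the Ccr7 and S1pr1 values was not tested. The list's medians were -0.16 and -0.36, beside -0.11 and -0.08 over all measured genes of T cells. Of the homing integrin and selectin genes, 9 were measured in T cells. DATK32 against rat IgG gave 0 higher and 2 lower, with a list median of -0.09. Itga4, the α4 chain, was lower there (-0.59). MECA-367 against rat IgG gave 0 higher and 1 lower, with a list median of -0.26. In neutrophils 9 other receptors were measured. DATK32 against rat IgG gave 3 higher and 0 lower (median 0.58, all genes -0.18), where 8.57% of all measured genes were called. MECA-367 against rat IgG gave 5 higher and 1 lower (median 0.60, all genes -0.44), where 33.4% of all measured genes were called. The formyl peptide receptor Fpr2 was higher in both, at 0.86 and 0.92, and the only lower one was Cxcr4 (-1.07) in MECA-367. In monocytes and macrophages 10 were measured. Of all genes of that class the rule called 2.66% for DATK32 and 9.22% for MECA-367, each against rat IgG. DATK32 against rat IgG gave 0 higher and 1 lower, Ccr7 (-0.69), with a median of 0.05 beside -0.04 over all genes. MECA-367 against rat IgG gave 1 higher, Fpr1 (1.38), and 3 lower, Ccr7 (-0.97), Cxcr4 (-0.63) and S1pr1 (-1.61), with a median of 0.14 beside -0.15 over all genes. In plasma cells 7 were measured. Of all plasma cell genes the rule called 3.25% for DATK32 and 13.3% for MECA-367, each against rat IgG. DATK32 against rat IgG gave 0 higher and 3 lower, Ccr7 (-0.64), Cxcr4 (-0.61) and S1pr1 (-0.99), with a median of 0.19 beside -0.09 over all genes. MECA-367 against rat IgG gave 3 higher and 2 lower, with a median of 0.31 beside -0.22 over all genes. Ccrl2 (0.77) and Fpr2 (1.70) were among the higher ones, and Ccr7 (-1.37) and S1pr1 (-1.77) were lower. Ccrl2 was highest in monocytes and macrophages (851 CPM) and Fpr2 in neutrophils (375 CPM). The neutrophil markers summed to 406, 2196 and 735 CPM in DATK32, MECA-367 and rat IgG plasma cells. Their part in these calls was not tested.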

How the data were processed

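The files held counts: UMIs per gene and barcode, made by the authors with Cell Ranger 6.0.2 on mm10, per the submitters' processing notes, and deposited without further scaling. The 3 matrices held between 27846540 and 30359331 UMIs each. Barcodes with at least 500 UMIs, at least 200 genes and at most 10% mitochondrial UMIs were kept (19109). With scanpy 1.11.5, counts were scaled to 10000 per cell and logged, and 2000 variable genes, the 8 receptors left out, gave 30 principal components and 24 Leiden clusters (resolution 1.0, 15 neighbours). Clusters were named from marker lists by thresholds set after the data were seen: 16 were named and 8 stayed unnamed. T cells were clustered again together with innate lymphocytes (3070 cells, 12 sub-clusters), where T cells alone had been planned. Scrublet marked 1 cell in all and thus did not work, so doublets were kept. The count functions were tested on simulated data. All 8 receptors, called members of the pathway lists and the 3 genes most alike were named, and some pathway genes and counts are not reported here. Members and lists were chosen with earlier results of these data known.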

Additional observations from a re-analysis of the deposited data

Results flagged for a closer look

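Barcodes that the filter left out enter only the alternative setting with every deposited barcode. They held more Ccr1 and Cxcr6 per UMI in the MECA-367 library than in the rat IgG library. Ccr1 had 254 counts and 26.8 CPM over 2497 such MECA-367 barcodes, against 99 counts and 8.08 CPM over 3459 rat IgG barcodes, a log2 ratio of 1.72. Cxcr6 had 38 counts in those MECA-367 barcodes and 21 in those of rat IgG, a log2 ratio of 1.19. Both passed the rule used for the kept cells, and none of the other 6 receptors did so in these barcodes. The share of all genes that passed it in these barcodes is not given, so this count has no reference. The sums were not split by cell class. Among kept cells, neutrophils, which led for Ccr1, numbered 555 in the MECA-367 library and 234 in the rat IgG library. The part of the cell mix in these 2 ratios was not tested.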

How the results depend on the processing

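The results were computed again under 20 other settings, 4 of them added after seeing the data. These gave 768 values of 42 ratios: 716 kept their call or stayed uncalled within their counting interval, 25 lost a call, 16 gained one, 11 uncalled ones moved out of that interval and 0 called ones reversed. Uncalled ratios could change sign: those of Cxcr6 in T cells for DATK32 against rat IgG ran from -0.13 to 0.75, of Ccr9 in T cells for MECA-367 against rat IgG from -0.88 to 0.38, and of Cxcr6 in monocytes and macrophages for the same comparison from -0.42 to 0.74. For DATK32 against rat IgG, the 1 called pair of receptor and class became 0 with at least 1000 UMIs and 500 genes per barcode, a 5% mitochondrial limit, Leiden resolution 0.5, 15 principal components, cells thinned to 500 UMIs, means over cells or cells over 0.5% epithelial marker UMIs left out, and 2 with every deposited barcode, cells thinned to 1000 UMIs or genes of at least 20 counts. For MECA-367 against rat IgG, the 6 became 3 at the 5% limit, 1 at 500 UMIs (Ccr10 in plasma cells, not among the 6) and 2 at 1000 UMIs. For DATK32 against MECA-367, the 2 became 5 with the stricter barcode filter, 4 at resolution 1.5, 5 with classes from marker scores alone and 1 at 500 UMIs (again Ccr10, not among the 2). The 3 sub-cluster calls became 0 with the stricter filter or either thinning, 6 with every barcode and 7 with the receptors among the clustering genes. The class with the highest level was the same for 4 of the 8 receptors under the stricter filter and for 6 to 8 otherwise. The T cell call of Gpr183 for MECA-367 against rat IgG also ended at 1000 UMIs (-0.79) and with marker-score classes (-0.34). Cx3cr1 in monocytes and macrophages kept its call for that comparison in the 17 of 20 alternatives that gave a value. The remaining settings gave no value for Cx3cr1, so they do not test its call. No ratio of Cx3cr1 at equal depth is given here, and the part of depth in its call was not tested. Thinning leaves fewer counts by construction. For the other settings the cause was not tested. No paired analysis was possible because each group was 1 library. Depth limits Gpr15, Ccr6 and Cx3cr1 most, which had 56, 98 and 153 counts in all.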
